A study of Mus musculus with 6 samples.

Results

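Heat shock, DNAJ and chaperonin genes were compared between untreated and cadmium-exposed mouse neural stem cells. The members were taken by gene symbol from the deposited gene table: all protein-coding genes whose symbols begin with Dnaja, Dnajb or Dnajc, Hspa, Hspb, Hspd, Hspe or Hsph and a digit, those beginning with Hsp90 or with Cct2 to Cct8, and Tcp1. This gave 78 of 25241 genes, of which 17711 are protein-coding. By family they were 42 HSP40 (DNAJ) genes, 14 HSP70 genes, 7 small heat shock protein genes, 3 HSP90 genes and 12 chaperonin genes. Hsph1 was placed with HSP70, and Hspd1 and Hspe1 with the chaperonins.

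RNA was sequenced from primary neural stem cells of the subgranular zone of the hippocampus, the layer that gives rise to new neurons in adult life. Wild type cells at passage 3 were either left untreated (control, 3 libraries) or kept in 0.8 μM CdCl2 for 72 h (cadmium, 3 libraries). The labels call the libraries biological replicates without saying whether they came from separate animals or platings, and give no age or sex, so p-values measure only the spread between these samples, which may be technical. The treatment was tested at 1 dose and 1 time.

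Molecular chaperones bind proteins that are not yet folded or have lost their fold. HSP70 proteins grip short stretches of chain in a cycle driven by ATP, HSP40 proteins bring them clients through the J domain and set off ATP hydrolysis, and HSP110 proteins such as the product of Hsph1 release the nucleotide. HSP90 finishes the folding of kinases and steroid receptors, small heat shock proteins hold unfolded clients without ATP, and chaperonins enclose a protein in a barrel in which it folds. Actin and tubulin need the cytosolic barrel, which is built from the products of Tcp1 and the Cct genes. Heat shock factor 1 (HSF1) raises part of these genes when proteins misfold, and cadmium, which binds thiols, is a classical inducer of that response.

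Library totals ranged from 37710042 to 41523231 counts. Mt1 and Hmox1, genes that respond to metal, rose as a check of the labels, by 1.19 ± 0.06 (SE, adjusted p = 1.4e-07) and 1.90 ± 0.05 (SE, adjusted p = 2.4e-12) on the log2 scale. Control replicate 3 stood apart from the other controls, with a score of -26.7 on the first principal component against -15.5 and -15.1, and 16.8 to 22.3 in cadmium. Of 10 stem cell markers 10 passed the filter on low counts, and of these 3 rose and 5 fell, with a median log2 fold change of -0.08. Nes rose most, at 333 to 383 CPM in control and 588 to 655 CPM in cadmium libraries (CPM, counts scaled to library size). Hes5 fell most, at 109 to 145 CPM in control and 45.7 to 58.7 CPM in cadmium libraries. Astrocyte markers were present in both groups: 6 of 7 fell and 1 rose, and together they took 0.488 to 0.570% of counts in control and 0.279 to 0.294% in cadmium. Oligodendrocyte lineage markers (4 fell and 1 rose of 6 tested, with Mog at 0 in all 3 control libraries) took 0.108 to 0.118% and 0.107 to 0.117%. Of 4 microglia markers in the table Ptprc was at 0 counts in every library, Csf1r and Tmem119 had 0 to 6 counts, and P2ry12, the 1 tested, had 14, 15 and 20 counts in control and 14, 7 and 19 in cadmium libraries and was not called. Neuron markers fell in 1 of 6 cases, and 2 of 3 mural and fibroblast and 2 of 2 ependymal markers that could be tested fell, the ependymal ones from 0.0057 to 0.0067% of counts in control to 0.0040 to 0.0044% in cadmium. Each culture was read as 1 pool, so fewer cells of a type and less RNA per cell cannot be told apart, and the part of these marker shifts in the results that follow was not tested.

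Of the 78 genes 69 passed the filter and were tested, 33 rose with cadmium and 7 fell. Among all 14369 genes tested 23.1% rose and 22.4% fell. The median log2 fold change of the 69 was 0.15, beside -0.01 over all genes tested. It was 0.11 without control replicate 3, and 0.14 to 0.17 with any other library left out. In 37 of the 69 every cadmium library lay above every control library and in 11 every one lay below, compared with 28.0% and 28.3% of all genes tested. Changes were small: 36 of the 40 called genes moved by less than 1.5-fold, and those beyond it were Hspa1a, Hspa1b, Hspb1 and Dnajc28. The number that fell was 4 without cadmium replicate 1.

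The families differed in their counts. All 10 chaperonin genes tested rose, as did all 3 HSP90 genes and 9 of 13 HSP70 genes, with 1 HSP70 gene falling. Of 4 small heat shock protein genes tested 2 rose and 1 fell. Among the 39 HSP40 genes 9 rose (23.1%, the same share as in all genes tested) and 5 fell (12.8%). Family medians of the log2 fold change were 0.34 for the chaperonins, 0.19 for HSP90, 0.22 for HSP70, 0.62 for the small heat shock proteins and 0.03 for HSP40. The small heat shock protein median rests on the sparse Hspb1 and Hspb2: it was 0.05 over the 2 genes left with at least 5 CPM, or with at least 1 FPKM, in 3 libraries and 0.33 on log2(FPKM + 1) with no minimum. No test between families was made.

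**Figure D1:**
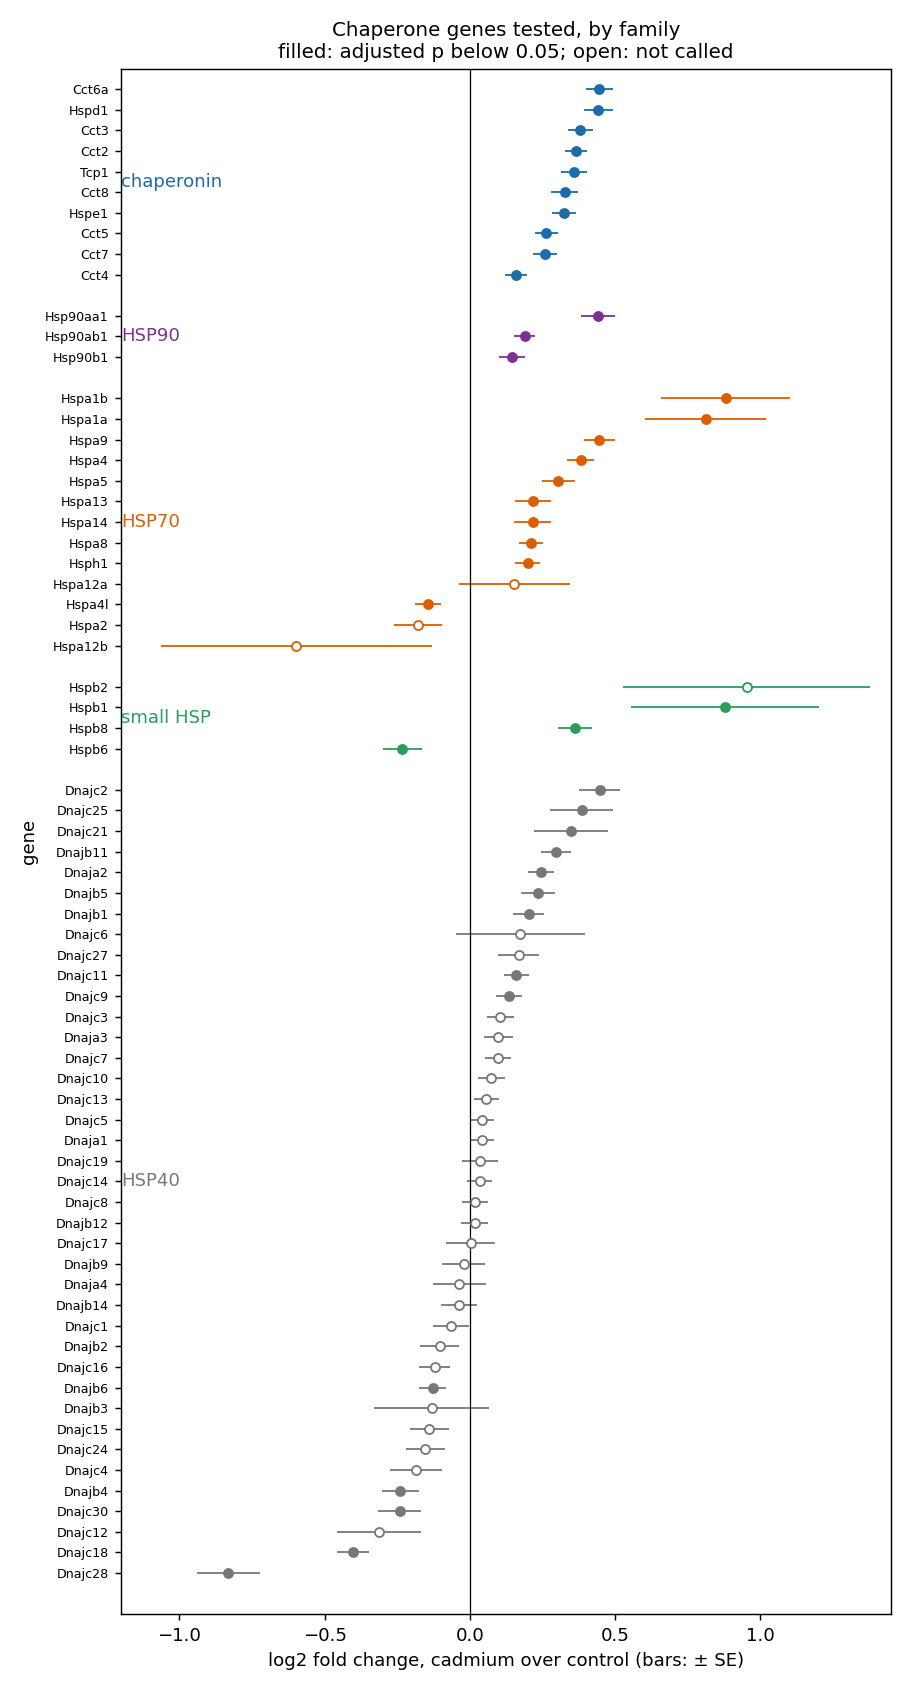
Log2 fold change (cadmium over control, x axis) of each of the 69 genes tested, ± SE, grouped by family; filled points passed an adjusted p of 0.05 and open points did not. All 10 chaperonin and 3 HSP90 points are filled and right of 0, and the HSP40 points spread from -0.83 to 0.45.

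The 9 genes below the filter were Dnajb13, Dnajc22, Dnajc5b, Hspa1l, Hspb3, Hspb7, Hspb9, Cct6b and Cct8l1. None had more than 18 counts in a library or more than 0.170 FPKM (a level per gene length and library size). Hspb9 had 0 counts in every library, which in the smallest library allows a level of up to 0.0796 CPM (3 counts, counting error only). Several of these genes are known from testis or muscle: Hspa1l and Cct6b are testis forms of Hspa1a and Cct6a.

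Summed over all members, the chaperone genes took 1.19, 1.21 and 1.12% of all counts in the control libraries (replicates 1, 2 and 3) and 1.35, 1.40 and 1.36% in the cadmium libraries. The groups did not overlap, and control replicate 3 was the lowest library. The chaperonin share went from 0.301 ± 0.0147% to 0.380 ± 0.0122% (SD, n = 3), the HSP70 share from 0.296 ± 0.0173% to 0.352 ± 0.00816% and the HSP90 share from 0.350 ± 0.0125% to 0.404 ± 0.00452%. HSP40 took 0.219 ± 0.00630% in control and 0.227 ± 0.00118% in cadmium libraries.

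Promoter sequence is shown for 5 members, chosen after the search as windows that hold the motif (4 genes that rose and 1 that fell), because heat shock factors bind inverted repeats of the unit GAA and such repeats mark the classical heat shock genes. Windows of 250 bases before to 50 after an annotated start were taken from RefSeq (build GRCm38.p6, whereas the submitters' processing notes name GRCm39). Of the 78 genes 63 matched, with 82 windows. Hsp90aa1, Hsp90ab1, Hspa8, Hspa9, Cct4, Dnajc2 and Dnajc18 were among those without a window, and so were not searched. Capitals mark paired units, TTCNNGAA or GAANNTTC on either strand, and 3 units in a row where a pair runs on in the same spacing. The windows are chr1:55087898-55088197 (plus strand) for Hspe1, chr5:149636266-149636565 (minus) for Hsph1, chr17:34972107-34972406 (minus) for Hspa1a, chr5:129787106-129787405 (plus) for Cct6a and chr5:29735648-29735947 (plus) for Dnajb6.
Hspe1: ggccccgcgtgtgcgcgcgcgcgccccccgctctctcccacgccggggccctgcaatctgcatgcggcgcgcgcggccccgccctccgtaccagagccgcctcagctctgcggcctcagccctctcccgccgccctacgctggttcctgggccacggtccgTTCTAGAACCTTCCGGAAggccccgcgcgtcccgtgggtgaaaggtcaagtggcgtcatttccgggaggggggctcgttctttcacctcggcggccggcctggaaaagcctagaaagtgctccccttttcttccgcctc
Hsph1: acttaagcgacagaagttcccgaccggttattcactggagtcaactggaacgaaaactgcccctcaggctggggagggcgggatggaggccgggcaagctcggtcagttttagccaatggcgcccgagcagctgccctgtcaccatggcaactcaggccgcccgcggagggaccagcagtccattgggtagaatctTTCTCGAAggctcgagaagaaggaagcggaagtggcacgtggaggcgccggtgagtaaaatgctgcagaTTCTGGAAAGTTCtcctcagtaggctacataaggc
Hspa1a: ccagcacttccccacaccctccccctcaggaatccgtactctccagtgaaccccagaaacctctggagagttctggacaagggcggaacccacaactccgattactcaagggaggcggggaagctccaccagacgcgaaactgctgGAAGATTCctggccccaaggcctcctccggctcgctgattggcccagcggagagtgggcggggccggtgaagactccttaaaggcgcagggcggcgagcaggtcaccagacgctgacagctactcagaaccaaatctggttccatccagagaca
Cct6a: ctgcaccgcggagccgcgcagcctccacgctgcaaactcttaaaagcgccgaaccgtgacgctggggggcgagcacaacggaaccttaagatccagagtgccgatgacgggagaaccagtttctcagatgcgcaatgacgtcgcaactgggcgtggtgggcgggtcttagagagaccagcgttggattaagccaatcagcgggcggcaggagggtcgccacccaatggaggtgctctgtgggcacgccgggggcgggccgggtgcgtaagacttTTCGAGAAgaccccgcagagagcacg
Dnajb6: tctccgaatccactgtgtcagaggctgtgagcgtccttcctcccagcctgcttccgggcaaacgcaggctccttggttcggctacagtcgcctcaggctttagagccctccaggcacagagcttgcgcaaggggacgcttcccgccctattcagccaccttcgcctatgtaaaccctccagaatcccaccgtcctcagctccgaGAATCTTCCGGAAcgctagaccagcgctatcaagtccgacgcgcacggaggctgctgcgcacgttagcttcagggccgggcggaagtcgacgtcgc

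A paired unit was present in 21 of the 82 windows (25.6%), and in 15.1% of all 32851 promoter windows. A run of 3 units stood in 6 of the 82 windows (7.32%) and in 0.603% of all windows. Those 6 windows cover 3 separate stretches, since Hspd1 and Hspe1 start close together in opposite directions and share the same 3 paired units, and the pairs of windows of Hsph1 and of Dnajb6 overlap. A pair was found in 10 of 25 members that rose, 3 of 5 that fell and 4 of 26 that were not called. Dnajb6, with 3 units, is among those that fell. Hspa1a and Hspa1b have 296 of 300 window bases alike. A match is a description of these letters, not of binding.

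Chaperonin genes rose throughout. The 8 subunits of the cytosolic ring (TRiC, or CCT) are Tcp1, Cct2, Cct3, Cct4, Cct5, Cct6a, Cct7 and Cct8, and all rose, by 11.7 to 36.2%. Their summed level was 1092, 1076 and 1008 FPKM in the control libraries and 1289, 1363 and 1301 FPKM in the cadmium libraries. No control library reached the lowest cadmium library. In the sentences that follow, values are listed in the order of replicates 1, 2 and 3.

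Tcp1 (Entrez 21454), which encodes the alpha subunit, was at 341, 322 and 305 CPM in control and 415, 421 and 406 CPM in cadmium libraries, a log2 fold change of 0.36 ± 0.04 (SE, adjusted p = 1.4e-05). Cct2 (12461), the beta subunit, was at 361, 356 and 350.2 CPM in control and 447, 472 and 457 CPM in cadmium libraries (log2 fold change 0.37 ± 0.04, adjusted p = 3.3e-06). The groups of both genes lay apart, and the spread within a group was small beside the gap. The largest rise in the ring was that of Cct6a (12466), the zeta subunit, from 274, 275 and 247 CPM in control and 352, 375 and 358 CPM in cadmium libraries (log2 fold change 0.45 ± 0.05, adjusted p = 3.8e-06). Cct4 (12464), the delta subunit, rose least, at 220.3, 217 and 216 CPM in control and 238, 248 and 243 CPM in cadmium libraries (log2 fold change 0.16 ± 0.04, adjusted p = 0.0031). Log2 fold changes of the other subunit genes were 0.38 ± 0.04 for Cct3 (gamma), 0.33 ± 0.05 for Cct8 (theta), 0.26 ± 0.04 for Cct5 (epsilon) and 0.26 ± 0.04 for Cct7 (eta), and the highest adjusted p in the ring was 0.0031.

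The ring holds each subunit once, and the mRNA levels per length lay close together: control means ran from 108 FPKM for Cct8 to 161 FPKM for Cct2, a 1.49-fold range, and cadmium means from 123 FPKM for Cct4 to 206 FPKM for Cct2, a 1.67-fold range. The FPKM ratio of Cct6a to Cct4 was 1.06, 1.08 and 0.977 in control and 1.26, 1.29 and 1.26 in cadmium libraries, a pair chosen after its values were seen. The ratio was higher in every cadmium library. Cct6a overlaps Psph and other annotated genes, whereas Cct4 overlaps none, so reads of Cct6a may be shared or lost. Tcp1, Cct7 and Cct8 overlap annotated genes as well. Each of the 10 chaperonin calls held in all 15 alternative analyses.

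**Figure D2:**
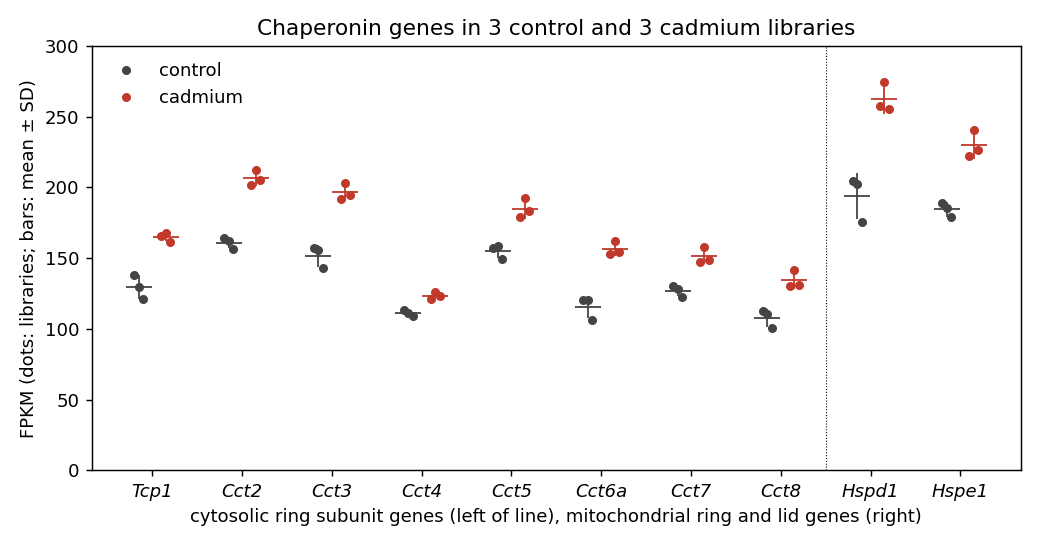
Level in FPKM (y axis) of the 8 cytosolic ring subunit genes and the mitochondrial Hspd1 and Hspe1 in each control (grey) and cadmium (red) library, with mean ± SD of 3. In every gene the 3 cadmium libraries lie above the 3 control libraries, and the gap is smallest for Cct4.

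Mitochondria have a chaperonin of their own, the HSP60 barrel encoded by Hspd1 and its lid HSP10 encoded by Hspe1. Hspd1 (15510) was at 525, 519 and 458 CPM in control and 667, 713 and 664 CPM in cadmium libraries, and rose by 0.44 ± 0.05 (SE, adjusted p = 1.3e-05). Hspe1 (15528) was at 144, 142 and 139 CPM in control and 171, 185 and 175 CPM in cadmium libraries (log2 fold change 0.32 ± 0.04, adjusted p = 2.9e-05). Control replicate 3 was the lowest library for both, and neither gene's groups overlapped. Per length the pair stood at similar levels, with an Hspd1 to Hspe1 FPKM ratio of 1.05 ± 0.0609 in control and 1.14 ± 0.0164 in cadmium (SD, n = 3). The annotated genes overlap at their starts, and reads there could be assigned to either or to none.

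HSP90 genes rose in all 3 cases. Hsp90ab1 (15516), the constitutive cytosolic form, had the highest level of all members at 957 ± 14.1 FPKM in control. It was at 2361, 2421 and 2394 CPM in control and 2665, 2758 and 2762 CPM in cadmium libraries, a log2 fold change of 0.19 ± 0.04 (SE, adjusted p = 0.00054). The inducible cytosolic form Hsp90aa1 (15519) was at 437, 455 and 377 CPM in control and 564, 573 and 586 CPM in cadmium libraries (log2 fold change 0.44 ± 0.06, adjusted p = 7.0e-05). Its FPKM ratio to Hsp90ab1 was 0.163, 0.165 and 0.138 in control and 0.186, 0.183 and 0.187 in cadmium libraries, so the inducible form was the lesser one in every library and took a larger part in each cadmium library. Hsp90b1 (22027), the endoplasmic reticulum (ER) form known as GRP94, was at 686, 718 and 629 CPM in control and 760.1, 748 and 740.3 CPM in cadmium libraries (log2 fold change 0.14 ± 0.05, adjusted p = 0.017). Leaving out cadmium replicate 1 (adjusted p = 0.071) or cadmium replicate 2 (0.051) ended that call, as did the log2(FPKM + 0.1) and log2(FPKM + 1) scales, over a range of 0.00037 to 0.13.

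Among HSP70 genes the abundant forms of 3 compartments rose. Hspa8 (15481), the constitutive cytosolic HSC70, made up 62.6% of the family's summed FPKM in control and 60.6% in cadmium. It was at 1479, 1572 and 1453 CPM in control and 1686, 1798 and 1726 CPM in cadmium libraries, a log2 fold change of 0.21 ± 0.04 (SE, adjusted p = 0.00074). Hspa5 (14828), the ER chaperone BiP, was at 480.4, 471 and 405 CPM in control and 556, 569.8 and 550.5 CPM in cadmium libraries (log2 fold change 0.31 ± 0.06, adjusted p = 0.00063). Mitochondrial HSP70, or mortalin, is encoded by Hspa9 (15526), which was at 378, 365 and 322 CPM in control and 473, 508 and 472 CPM in cadmium libraries (log2 fold change 0.45 ± 0.05, adjusted p = 2.6e-05). In each of these genes the groups lay apart, and control replicate 3 was the lowest library.

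HSP110 genes, whose products exchange the nucleotide of HSP70, did not move alike. Hspa4 (15525) was at 301, 293 and 266 CPM in control and 368, 372 and 382 CPM in cadmium libraries and rose by 0.38 ± 0.05 (SE, adjusted p = 1.3e-05). Hsph1 (15505), the stress-inducible HSP105, was at 114, 118 and 109 CPM in control and 129, 131 and 131 CPM in cadmium libraries (log2 fold change 0.20 ± 0.04, adjusted p = 0.0016). Hspa4l (18415) was at 93.1, 94.8 and 88.9 CPM in control and 81.6, 84.03 and 84.8 CPM in cadmium libraries and fell (log2 fold change -0.14 ± 0.05, adjusted p = 0.017), a call lost without control replicate 2 (adjusted p = 0.070), without cadmium replicate 1 (0.077) and on log2(FPKM + 0.1) or log2(FPKM + 1) with no minimum (range 0.0031 to 0.077). Hspa4 stood 6.71 ± 0.266 times above Hspa4l per length in control and 9.67 ± 0.0916 times in cadmium libraries (FPKM ratio, SD, n = 3).

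The strictly stress-inducible pair Hspa1a and Hspa1b was close to silent. Hspa1a (193740) had 58, 55 and 45 counts in control and 85, 87 and 94 in cadmium libraries, or 1.41, 1.32 and 1.09 CPM in control and 2.09, 2.32 and 2.32 CPM in cadmium libraries (log2 fold change 0.81 ± 0.21, adjusted p = 0.0050). For Hspa1b (15511) there were 68, 46 and 46 counts in control and 90, 86 and 107 in cadmium libraries, or 1.66, 1.10 and 1.12 CPM in control and 2.21, 2.29 and 2.64 CPM in cadmium libraries (log2 fold change 0.88 ± 0.22, adjusted p = 0.0046). Their proteins are nearly identical and so are long parts of the transcripts, so reads can be shared or lost and the genes are not independent results. At 0.457 ± 0.0630 and 0.461 ± 0.116 FPKM in control they stood far below Hspa8, whose level was 1391, 1589 and 1767 times that of Hspa1a in control and 1072, 1032 and 990.2 times in cadmium libraries.

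Of the remaining HSP70 genes, Hspa13 (microsomal STCH) and Hspa14 (a ribosome-associated form) rose by 0.22 ± 0.06 (SE, adjusted p = 0.010) and 0.22 ± 0.06 (SE, adjusted p = 0.012). The Hspa13 groups overlapped, with control replicate 1 at 87.3 CPM and cadmium replicate 2 at 87.2 CPM, and its call was lost without control replicate 2 (adjusted p = 0.052). The Hspa14 call was lost without cadmium replicate 2 (0.071), and both were lost on log2(FPKM + 0.1) and log2(FPKM + 1) with no minimum (ranges 3.1e-05 to 0.098 and 0.00046 to 0.089). Hspa2, a form best known from spermatogenesis, was at 16.5, 19.3 and 18.8 CPM in control and 14.8, 16.4 and 16.99 CPM in cadmium libraries (log2 fold change -0.18 ± 0.08, adjusted p = 0.097; called with control replicate 1 left out, adjusted p = 0.037, range 0.037 to 0.32). Hspa12a and Hspa12b were below 5 CPM in all libraries and were not called.

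**Figure D3:**
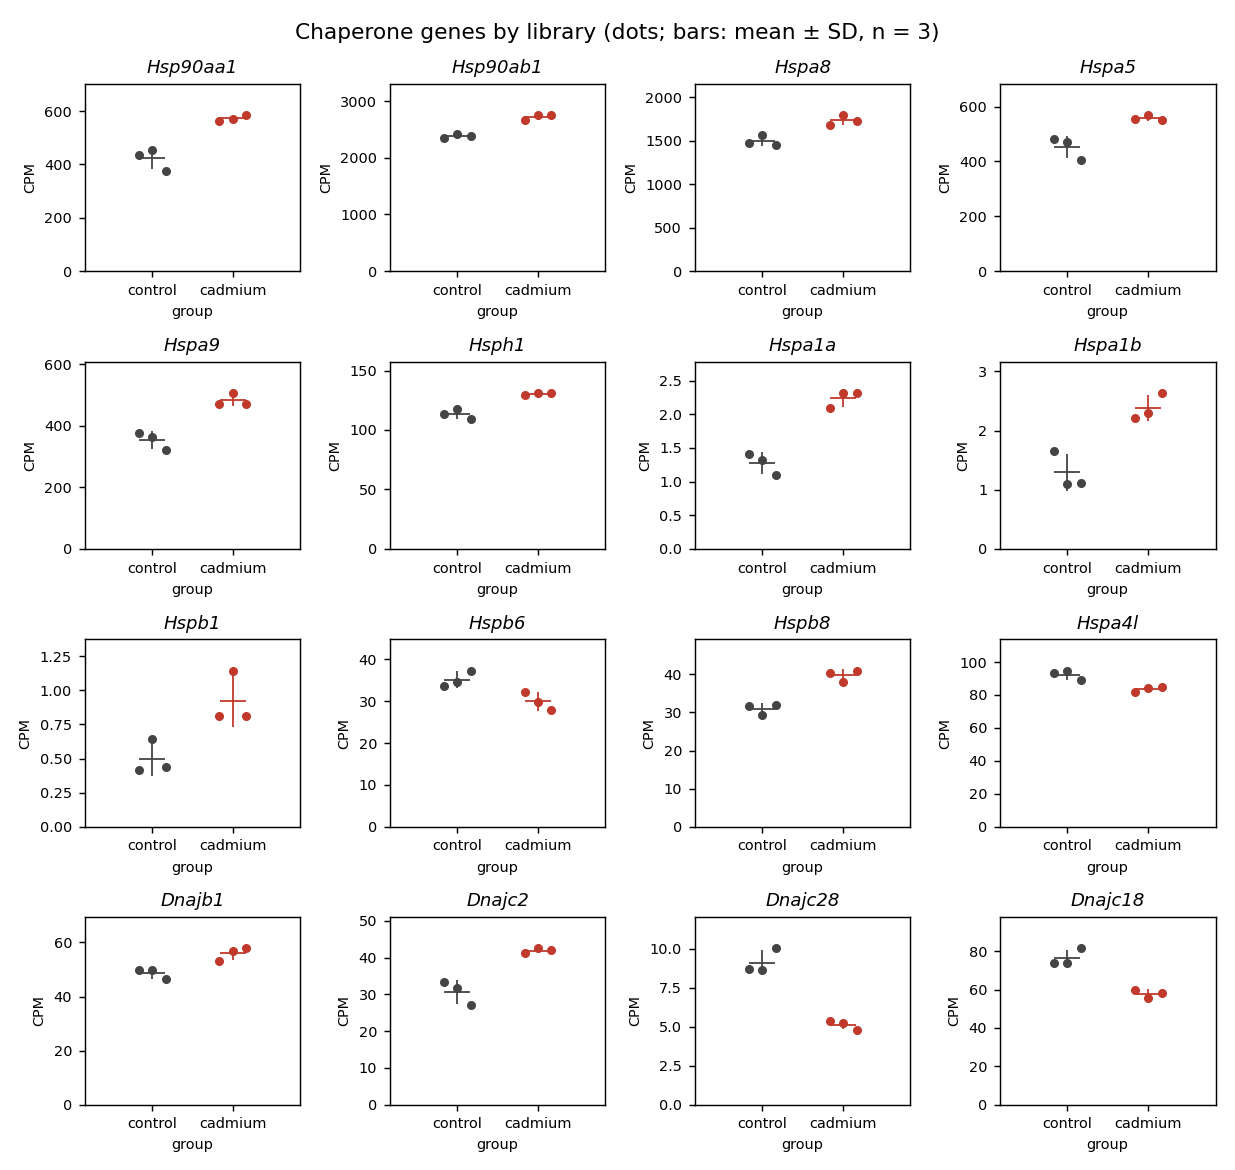
CPM (y axis, from 0) of 16 members in each control (grey) and cadmium (red) library, with mean ± SD of 3. Hspa4l, Hspb6, Dnajc28 and Dnajc18 are lower in cadmium, the other 12 are higher, and Hspa1a, Hspa1b and Hspb1 lie below 3 CPM throughout.

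Small heat shock protein genes split. Hspb8 (80888), which works with BAG3 in clearing aggregates, was at 31.7, 29.3 and 31.9 CPM in control and 40.3, 37.95 and 40.97 CPM in cadmium libraries and rose by 0.36 ± 0.06 (SE, adjusted p = 0.00018). Hspb6 (243912), or HSP20, was at 33.5, 34.6 and 37.3 CPM in control and 32.2, 29.8 and 27.8 CPM in cadmium libraries and fell (log2 fold change -0.23 ± 0.07, adjusted p = 0.011), a call that ended (adjusted p = 0.072; range 0.0059 to 0.072) when cadmium replicate 3 was left out. The FPKM ratio of Hspb8 to Hspb6 was 1.00, 0.898 and 0.906 in control and 1.33, 1.35 and 1.56 in cadmium libraries. That it was higher in every cadmium library follows from the opposite changes of these genes and is no further result. Hspb1 (15507), the classical HSP27, had 17, 27 and 18 counts in control and 33, 43 and 33 in cadmium libraries (0.415, 0.646 and 0.437 CPM in control and 0.812, 1.15 and 0.814 CPM in cadmium libraries). Its log2 fold change was 0.88 ± 0.32 (SE, adjusted p = 0.038). It was no longer called when control replicate 1 (adjusted p = 0.12) or 3 (0.095) was left out, or any of cadmium replicates 1 (0.053), 2 (0.15) and 3 (0.057), or with DESeq2 (0.066; range 0.027 to 0.15). Hspb2, with 7 to 25 counts in a library, had the largest fitted change of all members tested, 0.95 ± 0.43 (SE, adjusted p = 0.081), and was called without control replicate 1 (adjusted p = 0.014, range 0.014 to 0.26). Its libraries were at 0.512, 0.167 and 0.219 CPM in control and 0.615, 0.639 and 0.493 CPM in cadmium libraries, and control replicate 1 lay within the cadmium range. Hspb2 overlaps the crystallin gene Cryab, and without strand the reads of the overlap belong to either.

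Most HSP40 genes did not pass the test. Of 39 tested, 25 were not called, with log2 fold changes from -0.31 to 0.17, and 15 of these were within 0.1 of 0. Dnaja1 (15502), a farnesylated class A partner of HSP70, was at 212, 213 and 204 CPM in control and 214, 214 and 219 CPM in cadmium libraries. Its cadmium libraries lay above its control libraries by a small margin, 0.04 ± 0.04 (SE, adjusted p = 0.37). By class, 1 of 4 class A, 3 of 10 class B and 5 of 25 class C genes rose, and 0, 2 and 3 fell. The shares that rose (25.0%, 30.0% and 20.0%) lay near the 23.1% of all genes tested. The number of HSP40 genes that fell was 3 without cadmium replicate 1 and 3 without cadmium replicate 3.

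Partners of cytosolic HSP70 were among those that rose. Dnajb1 (81489), the HSP40 protein induced by heat, was at 49.6, 49.6 and 46.4 CPM in control and 53.1, 56.8 and 57.8 CPM in cadmium libraries (log2 fold change 0.20 ± 0.05, adjusted p = 0.0063). Dnaja2 (56445), a class A form, was at 159.8, 156 and 144 CPM in control and 178, 185 and 182 CPM in cadmium libraries (log2 fold change 0.25 ± 0.05, adjusted p = 0.00045), and Dnajb5 (56323) was at 45.1, 52.1 and 46.5 CPM in control and 55.9, 57.1 and 56.3 CPM in cadmium libraries (log2 fold change 0.24 ± 0.06, adjusted p = 0.0038). Every cadmium library of these genes was above every control library. Dnajb4 (67035), a close relative of Dnajb1, was at 32.3, 30.9 and 33.97 CPM in control and 28.1, 25.97 and 28.2 CPM in cadmium libraries and fell (log2 fold change -0.24 ± 0.06, adjusted p = 0.0063). Dnajb6, which suppresses aggregation of polyglutamine proteins, was at 76.6, 80.5 and 76.9 CPM in control and 69.8, 73.7 and 70.7 CPM in cadmium libraries and fell by 8.47% (log2 fold change -0.13 ± 0.05, adjusted p = 0.037). It was not called when control replicate 2 (adjusted p = 0.13) was left out, nor without cadmium replicates 1 (0.13) or 3 (0.13), with DESeq2 (0.069), with no filter (0.11) and on log2(FPKM + 0.1) or log2(FPKM + 1) with no minimum (range 0.021 to 0.13).

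The largest rise in the family was that of Dnajc2. This gene (22791) encodes MPP11, which sits at the ribosome exit with the product of Hspa14, and was at 33.4, 31.6 and 27.00 CPM in control and 41.2, 42.5 and 41.9 CPM in cadmium libraries, a log2 fold change of 0.45 ± 0.07 (SE, adjusted p = 0.00013). Control replicate 3 was again the lowest library, and the groups lay apart. Dnajc21, the relative of yeast Jjj1 that matures the large ribosomal subunit, rose by 0.35 ± 0.13 (SE, adjusted p = 0.036) at 6 to 10 CPM, with groups that touch (8.68 CPM in control replicate 1 and 8.56 CPM in cadmium replicate 3). It was not called without control replicates 2 (adjusted p = 0.067) or 3 (0.13), without cadmium replicates 1 (0.097) or 2 (0.13), or in any of 3 analyses of log2 FPKM (range 0.0051 to 0.17). Dnajc9, a histone chaperone and the most abundant HSP40 gene at 76.1 ± 3.76 FPKM in control, rose by 0.13 ± 0.04 (SE, adjusted p = 0.023). The Dnajc9 call ended without control replicate 1 (adjusted p = 0.067), without cadmium replicates 2 (0.070) or 3 (0.11), and on log2(FPKM + 0.1) or log2(FPKM + 1) with no minimum (range 0.0064 to 0.11).

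In the ER, 5 of 11 listed members rose and 0 fell, beside 23.1% and 22.4% of all genes tested. The median log2 fold change of the 11 was 0.11. Besides Hspa5, Hsp90b1 and Hspa13, those that rose were Dnajb11 and Dnajc25. The Hsp90b1 and Hspa13 calls were lost in some alternatives, and the Hspa13 groups overlapped. Dnajc18, anchored in the ER membrane but not on this list, fell (log2 fold change -0.40 ± 0.05). Dnajb11 (67838), a co-chaperone of BiP, was at 89.5, 89.2 and 80.5 CPM in control and 104, 110.2 and 105 CPM in cadmium libraries (log2 fold change 0.30 ± 0.05, adjusted p = 0.00025), and the groups were well apart. Dnajc25 was lower, at 7.61, 6.48 and 6.03 CPM in control and 8.76, 8.44 and 9.08 CPM in cadmium libraries (log2 fold change 0.39 ± 0.11, adjusted p = 0.0094). The ER members Dnajb9 and Dnajc3 were not called, with log2 fold changes of -0.02 ± 0.07 and 0.11 ± 0.05. CCAAT, a motif searched on either strand, was present in 5 of 10 promoter windows of ER members and in 37.4% of all windows. Hsp90b1 held 6 copies, Dnajb11 5, Hspa5 4, Dnajc3 2 and Dnajb9 1, and the windows of Dnajc25, which rose, and of Dnajb12, Dnajb14, Dnajc1 and Dnajc10, which were not called, held 0.

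In mitochondria, 4 of 10 members rose and 2 fell, beside 23.1% and 22.4% of all genes tested, with a median log2 fold change of 0.07. Hspa9, Hspd1 and Hspe1, each above 100 FPKM in control, and Dnajc11 (log2 fold change 0.16 ± 0.04, adjusted p = 0.0082), a protein of the cristae junctions, rose. Dnajc28 (246738), a little-studied mitochondrial J protein, was at 8.68, 8.63 and 10.01 CPM in control and 5.34, 5.22 and 4.79 CPM in cadmium libraries, which is the largest fall of all members (log2 fold change -0.83 ± 0.11, adjusted p = 2.7e-05). Dnajc30 (66114), which takes part in the repair of complex I, was at 22.9, 24.7 and 26.9 CPM in control and 20.8, 22.1 and 20.2 CPM in cadmium libraries (log2 fold change -0.24 ± 0.07, adjusted p = 0.016); leaving out cadmium replicate 1 (adjusted p = 0.054) or 3 (0.076) ended the call (range 0.0068 to 0.076). Dnajc30 overlaps Bud23, so reads there may not be its own. Dnaja3, the J protein partner of Hspa9, was not called (log2 fold change 0.10 ± 0.05, adjusted p = 0.11), nor were Dnajc15 and Dnajc19 of the import motor, at -0.14 ± 0.07 and 0.04 ± 0.06, though Dnajc15 passed on log2(FPKM + 1) with at least 1 FPKM in 3 libraries (adjusted p = 0.025, range 0.025 to 0.28).

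Dnajc18 (76594), a J protein anchored in the ER membrane that was not on the ER list, fell too. It was at 73.8, 73.9 and 81.4 CPM in control and 59.9, 55.3 and 58.04 CPM in cadmium libraries, a log2 fold change of -0.40 ± 0.05 (SE, adjusted p = 3.3e-05), and the groups lay apart. Control replicate 3 was the highest library for Dnajc18 and for Dnajc28, whereas it was the lowest for Tcp1, Cct2, Cct6a, Cct4, Hspd1 and Hspe1.

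The list of 9 cytosolic genes of the stress response held Hspa1a, Hspa1b, Hspa8, Hsph1, Hsp90aa1, Hspb1, Dnaja1, Dnajb1 and Hspa4l, and so includes the largely constitutive Hspa8. Of these 7 rose and 1 fell (77.8% and 11.1%), beside 23.1% and 22.4% of all genes tested, with a median log2 fold change of 0.21. Without Hspa8, 6 of 8 rose and 1 fell, with a median of 0.32. These include the sparse Hspa1a (0.81), Hspa1b (0.88) and Hspb1 (0.88). Hspa1a and Hspa1b are not independent results, and the Hspb1 call was lost in 6 of 13 alternatives. The others were Hsp90aa1 (0.44), Dnajb1 (0.20), Hsph1 (0.20), Dnaja1 (0.04) and Hspa4l (-0.14). Of 4 heat shock factor and related genes tested 1 rose and 1 fell (25% and 25%), near the 23.1% and 22.4% of all genes tested. The transcription factor gene Hsf1 itself rose from 33.9 ± 2.21 to 40.4 ± 2.25 CPM (log2 fold change 0.25 ± 0.06, adjusted p = 0.0048), and Hsbp1, which encodes a protein that binds HSF1, fell from 196 ± 8.19 to 170.0 ± 3.13 CPM (log2 fold change -0.20 ± 0.04, adjusted p = 0.0012). Hsf2 was not called (log2 fold change 0.06 ± 0.06, adjusted p = 0.41). The activity of HSF1 depends on its assembly into trimers and was not measured.

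Partner genes were read from lists of co-chaperones. Of 28 HSP90 partners tested 12 rose and 4 fell (42.9% and 14.3%), beside 23.1% and 22.4% of all genes tested. Their median log2 fold change was 0.14. The 4 with the smallest p were Ruvbl1 and Ruvbl2, ATPases that work with HSP90 in building RNA polymerases and snoRNPs, the immunophilin gene Fkbp4 and the cyclophilin gene Ppid. Ruvbl1 rose from 33.3 ± 1.59 to 45.2 ± 0.486 CPM (log2 fold change 0.44 ± 0.06, adjusted p = 1.8e-05), Ruvbl2 by 0.37 ± 0.05, Fkbp4 by 0.31 ± 0.04 and Ppid by 0.52 ± 0.08 on the log2 scale. Trap1, the mitochondrial HSP90, was at 167 ± 1.17 and 161 ± 3.45 CPM and was not called (log2 fold change -0.05 ± 0.04, adjusted p = 0.3).

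Of 18 HSP70 partners 7 rose and 3 fell (38.9% and 16.7%), beside 23.1% and 22.4% of all genes tested, with a median log2 fold change of 0.07. The nucleotide exchange factor gene Bag2 rose most, from 11.5 ± 1.34 to 18.4 ± 0.585 CPM (log2 fold change 0.68 ± 0.09, adjusted p = 3.1e-05), followed among the 4 smallest p by Hyou1 (ER HSP110, 0.39 ± 0.05), Stub1 (the ubiquitin ligase CHIP, 0.31 ± 0.04) and Bag4 (0.31 ± 0.06). Bag3, the BAG gene induced by HSF1, was at 53.5 ± 1.01 and 53.4 ± 2.32 CPM and was not called (log2 fold change 0.00 ± 0.05, adjusted p = 0.96). Prefoldin and tubulin-folding genes, which hand clients to or take them from the cytosolic ring, rose in 4 and fell in 1 of 15 cases (median 0.03), or 26.7% and 6.67%, beside 23.1% and 22.4% of all genes tested. Among them Pfdn2 rose by 0.22 ± 0.05 and Pfdn4 by 0.33 ± 0.08, and Pfdn5 fell by 0.20 ± 0.05 on the log2 scale. Pfdn1 rose by 0.13 ± 0.05, a call that ended without control replicates 1 (adjusted p = 0.12) or 3 (0.058), without cadmium replicates 1 (0.081) or 2 (0.15), with upper-quartile scaling (0.057), with a minimum of 5 CPM (0.052) and on log2(FPKM + 0.1) or log2(FPKM + 1) with no minimum (range 0.017 to 0.15).

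Genes of mitochondrial protein quality rose in 3 and fell in 1 of 12 cases (median -0.01). They were proteases, processing peptidase subunits, the disaggregase gene Clpb, and Trap1, which is also on the HSP90 partner list. The shares that rose and fell, 25% and 8.33%, stood beside 23.1% and 22.4% of all genes tested. Afg3l2 (0.35 ± 0.05), Htra2 (0.29 ± 0.06) and Pmpca (0.15 ± 0.04) rose, and Clpx, the unfoldase of the matrix protease, fell (-0.20 ± 0.05). Cryab, the alpha B crystallin gene outside the Hspb series, fell from 59.2 ± 6.43 to 49.9 ± 1.89 CPM (log2 fold change -0.25 ± 0.07, adjusted p = 0.010), a call that ended when cadmium replicate 2 was left out (adjusted p = 0.052) and on log2(FPKM + 0.1) or log2(FPKM + 1) with no minimum (range 0.00040 to 0.062).

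Counts of called members were set beside their level. Of 21 members at 50 FPKM or more in control 19 rose and 0 fell, beside 32.5% and 26.0% of the 1416 genes tested at that level. From 10 to 50 FPKM 9 of 26 rose and 4 fell, beside 28.9% and 25.2% of genes at that level. Below 10 FPKM 5 of 22 rose and 3 fell, beside 18.8% and 20.5% of genes at that level. Median log2 fold changes were 0.31, 0.07 and -0.04 from the highest class to the lowest. Across the 69 genes Spearman's rho between control FPKM and log2 fold change was 0.28 (Pearson's r with log2 FPKM 0.08), and 0.07 across all genes tested. Within HSP40 alone rho was 0.13 over 39 genes, and over the 30 members outside HSP40 it was -0.03 (r = -0.09). These are descriptions across genes that share libraries, and family and level go together, since all chaperonins tested were above 100 FPKM in control.

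**Figure D4:**
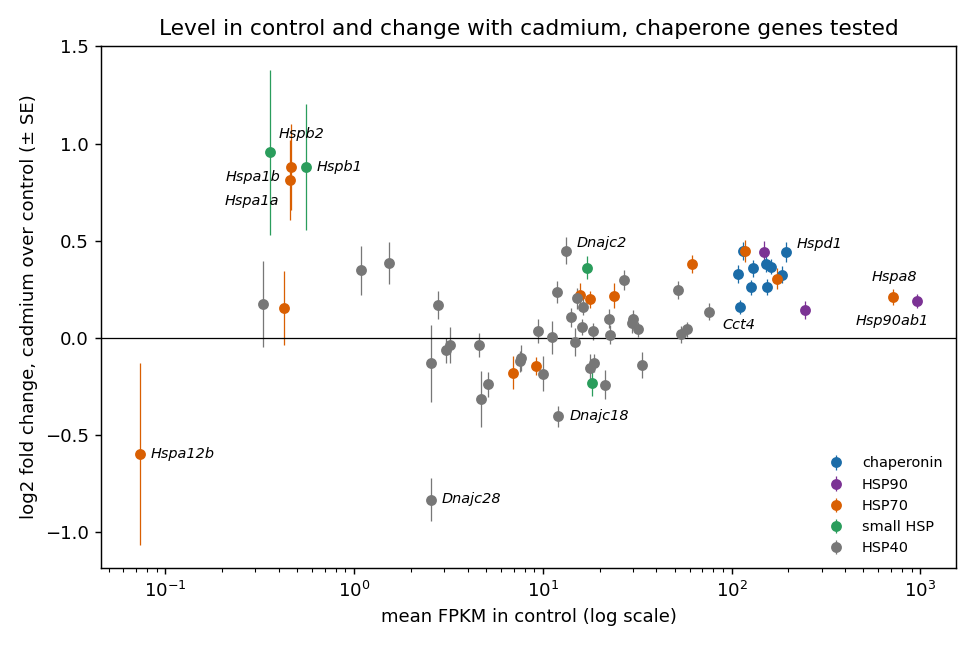
Mean control level (FPKM, log x axis) against log2 fold change ± SE (y axis) for the 69 genes tested, coloured by family. The chaperonin, HSP90 and abundant HSP70 points gather at the right above 0, while HSP40 points lie on both sides of 0 and the sparse Hspa1a, Hspa1b, Hspb1 and Hspb2 stand high with wide errors.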

How the data were processed

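Counts per gene were made by the authors and deposited as whole numbers of reads. The deposited FPKM values are the authors' levels per gene length and library total, and serve here for comparing levels between genes. The build GRCm39 and the tools HTSeq 0.11.2, HISAT2 2.1.0, DESeq2 1.22.2 and fastp 0.20.1 stand in the submitters' processing notes, with no role for each. Annotation and strand setting are not given in the sources used here.

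Columns were matched to samples through their library names, and groups come from the labels. After filterByExpr (minimum count 10, minimum total 15), the robust quasi-likelihood test of edgeR 4.0.16 (R 4.3.3) compared the groups with TMM scaling and no covariate, and p-values are two-sided and Benjamini-Hochberg adjusted over all 14369 genes. A gene rose or fell at an adjusted p below 0.05. CPM use the TMM-scaled totals, a positive log2 fold change means higher in cadmium, and its SE is the absolute change over the square root of F. Reads of overlapping genes (36 of the 78 members overlap an annotated gene in RefSeq GRCm38.p6) or of near-identical copies may be shared or lost.

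Alternatives were 2 other scalings, DESeq2 1.42.0, 2 other filters, limma 3.58.1 on log2 FPKM (3 settings), leaving out each library and a replicate block. Members, lists and the rule for named genes (fixed members whatever their result, those with the smallest p per family or list) were chosen with earlier results of these data known.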

Additional observations from a re-analysis of the deposited data

How the results depend on the processing

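Directions of called members did not turn in any of the 15 alternatives. Of 1020 values of the 69 members under alternatives, 953 kept their direction and side of the threshold, 43 lost a call, 8 gained one, and 16, all of uncalled members, changed sign. Of the 40 called members 30 kept the call in every alternative that gave a value, 27 that rose and 3 that fell. The number of members that rose was 28 to 33 and the number that fell 4 to 10. With 1 library left out at a time, 4 to 8 members fell, 3 to 5 HSP40 genes fell, 0 to 2 HSP70 genes fell, 1 to 2 small heat shock protein genes rose, 0 to 1 fell and 0 to 1 chaperonin genes fell, the last being Cct6b (2 to 18 counts) without cadmium replicate 3. On log2(FPKM + 1) with at least 1 FPKM in 3 libraries 8 HSP40 genes fell and 1 small heat shock protein gene rose, as 1 did with DESeq2 and with at least 5 CPM in 3 libraries. No HSP70 gene fell (0) on log2(FPKM + 0.1) or log2(FPKM + 1) with no minimum. With the replicate number as a block 33 members rose and 7 fell, genes tested that rose numbered 3317 and genes tested that fell 3192. The deviations of same-numbered libraries correlated at 0.016, 0.099 and -0.0015, so the numbers were not taken as pairing. The block ended the calls of the partner genes Bag6 (adjusted p = 0.053, range over alternatives 0.0023 to 0.16), Sil1 (0.056, 0.030 to 0.17) and Pfdn6 (0.057, 0.019 to 0.16). Low counts limit Hspa1a, Hspa1b, Hspb1 and Hspb2.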
